A study of Mus musculus with 8 samples.

Results

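10 genes that build and maintain the neuromuscular junction were followed here in mouse soleus, chosen by symbol. They are the agrin-MuSK scaffold genes Agrn, Lrp4, Musk, Dok7 and Rapsn, the acetylcholinesterase gene Ache with its collagen tail Colq, and the regulators Nrg1, Etv5 and Prkar1a. All 10 had a row among the 22880 genes counted, and 9 passed the filter on low counts, which left 14001 genes for testing. Nrg1 did not pass. The samples were whole soleus muscles, a slow postural muscle of the hind limb, from 4 control mice (Dnm2 +/+) and 4 Dnm2 +/K562E mice, all male, 2 months old and on a C57BL/6 background (the J substrain, per the study's methods). The description of Dnm2 +/K562E mouse 1 writes the exchange with another residue number, whereas its title and genotype label give K562E. The mutant allele carries the K562E exchange in dynamin 2, a GTPase of membrane fission, at its own locus in every cell, with 1 loxP site left in an intron, and no other allele or treatment distinguished the groups. Each library held 33407430 to 48832814 counts. Levels are given as normalized CPM, a gene's counts relative to the total of its library after TMM scaling, in the order of mice 1 to 4 of each group. Calls required both an adjusted p below 0.05 and a log2 fold change beyond 0.58 in either direction.

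The neuromuscular junction is the synapse at which a motor axon commands a muscle fibre. Agrin released by the nerve binds LRP4 in the fibre membrane, and this complex switches on the receptor kinase MuSK. DOK7 binds MuSK inside the fibre and keeps it active, and rapsyn ties the acetylcholine receptors together beneath the nerve ending. Acetylcholinesterase, anchored in the synaptic cleft by the collagen ColQ, breaks down the transmitter. Several of these genes are transcribed mostly in the few fibre nuclei under the synapse, and some are also transcribed along the whole fibre when it is not innervated. The counts sum all splice forms, so the neural and non-neural forms of agrin, or the forms of acetylcholinesterase, could not be told apart.

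The junction genes did not move together. Ache, Etv5, Lrp4, Colq, Prkar1a and Musk were called higher in Dnm2 +/K562E soleus, with log2 fold changes from 1.60 (Ache) down to 0.65 (Musk). Agrn, Dok7 and Rapsn were lower, between -0.55 and -0.38, with an adjusted p under 0.05 but short of the fold threshold, so that none of the members was called lower. Over all tested genes 12.9% were called higher and 7.85% lower (20.7% either way), and without the fold threshold 22.2% were higher and 21.7% lower (43.8% either way). The 6 higher and the 3 lower members each separated the genotypes without overlap, as did 20.6% of all genes upwards and 20.5% downwards (41.2% either way). The members' median log2 fold change was 0.76, against 0.01 over all genes. These members were chosen with results of this series known, so their share of calls is a description. In whole muscle, fewer cells of one type and less RNA per cell cannot be told apart.

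**Figure D1:**
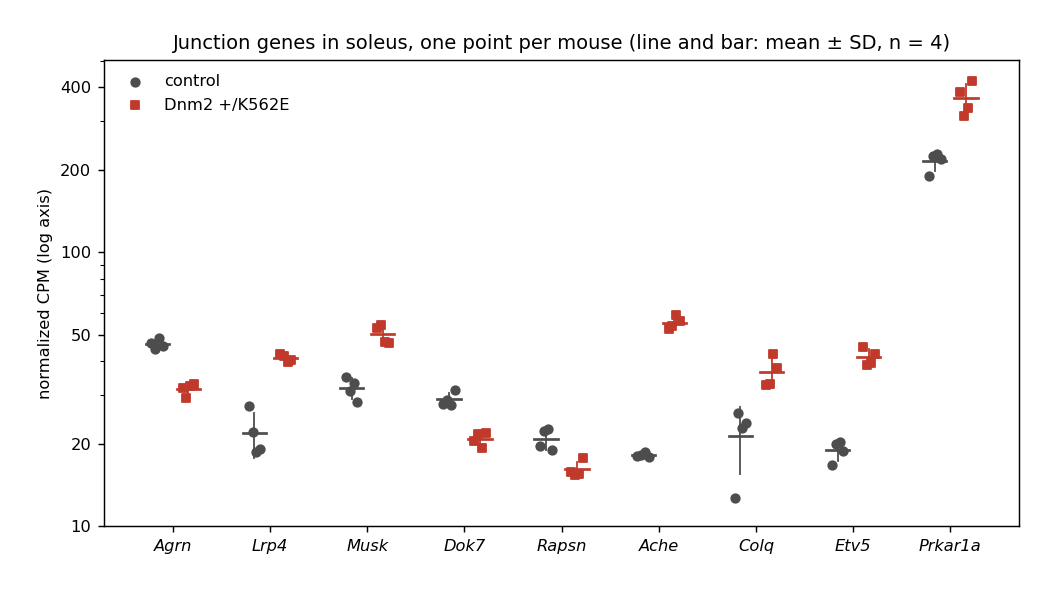
Normalized CPM (log axis) of the 9 tested junction genes in each of the 4 control mice (grey circles) and 4 Dnm2 +/K562E mice (red squares), with the mean as a horizontal line and the SD as a vertical bar. Each gene separates the genotypes, upwards for Lrp4, Musk, Ache, Colq, Etv5 and Prkar1a and downwards for Agrn, Dok7 and Rapsn, and control 1 lies far below the other controls in Colq (12.7 CPM).

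Ache (ENSMUSG00000023328, chromosome 5, 137287519 to 137294466, plus strand) showed the largest change of the members. It stood at 18.08, 18.20, 18.59 and 17.96 CPM in the controls and at 52.4, 53.9, 59.0 and 56.1 CPM in the Dnm2 +/K562E mice. The controls lay within 1 CPM of each other, and the lowest mutant was far above the highest of them. The rise was 3.04-fold (log2 fold change 1.60, SE 0.06, adjusted p = 9.34e-08, edgeR quasi-likelihood test). Its partner Colq (ENSMUSG00000057606, chromosome 14, 31523082 to 31591343, minus strand) encodes the collagen tail that fixes the enzyme to the synaptic basal lamina. Colq was at 12.72, 25.99, 22.91 and 23.73 CPM in controls and at 32.6, 33.1, 42.6 and 37.7 CPM in mutants. Control 1 was low, but no value overlapped between the genotypes. Colq rose 1.71-fold (log2 fold change 0.77, SE 0.18, adjusted p = 0.00604, same test), and without control 1 the log2 fold change was 0.59, only just past the threshold.

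Of the other genes of acetylcholine handling none was called, and several were too scarce to test. Prima1, which anchors acetylcholinesterase in membranes, was scarce at 14 to 35 counts a library and was at 0.784 ± 0.193 CPM in controls and 0.556 ± 0.157 CPM in mutants (SD, n = 4 each), and its log2 fold change was -0.49 (edgeR quasi-likelihood test, adjusted p = 0.249). Bche, the related butyrylcholinesterase, had a log2 change of 0.24 that did not pass (edgeR quasi-likelihood test, adjusted p = 0.196), and its highest control was control 1. With other processing or a mouse left out, the Bche change was 0.16 to 0.45. It reached an adjusted p under 0.05 there but was never called. Chat and Slc5a7, markers of the cholinergic neuron itself, had 0 counts in all 8 libraries, and the vesicular transporter Slc18a3 had 1 count in all, in mutant 4. Of these 5 genes only Bche and Prima1 passed the filter and were tested, and neither was called, beside 20.7% of all tested genes.

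Of the scaffold genes, both parts of the agrin receptor were higher. Lrp4 (ENSMUSG00000027253, chromosome 2, 91457511 to 91513779, plus strand) encodes the agrin-binding subunit. It measured 27.4, 22.1, 18.6 and 19.2 CPM in controls and 42.6, 41.9, 39.9 and 40.5 CPM in Dnm2 +/K562E mice. The mutants were close together and all above control 1, the highest control. Lrp4 rose 1.89-fold (log2 fold change 0.92, SE 0.11, adjusted p = 8.13e-05, edgeR quasi-likelihood test). Musk (ENSMUSG00000057280, chromosome 4, 58285960 to 58374303, plus strand), the kinase, was at 35.1, 31.2, 33.2 and 28.4 CPM in controls and at 52.8, 54.0, 47.2 and 46.7 CPM in mutants. Again the groups were apart, by more than the spread within either. The increase was 1.57-fold (log2 fold change 0.65, SE 0.08, adjusted p = 1.12e-04, same test), and it stayed above the fold threshold without any one mouse, the lowest value being 0.59 without control 4.

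The ligand, the MuSK adaptor and the receptor clustering protein went the other way. Agrn (ENSMUSG00000041936, chromosome 4, 156165290 to 156197488, minus strand) was at 46.6, 44.4, 48.7 and 45.6 CPM in controls and at 32.0, 29.3, 32.4 and 33.1 CPM in mutants. Every mutant was below every control, and the gap was wider than the range of either group. Agrn was 1.46-fold lower (log2 fold change -0.55, SE 0.06, adjusted p = 6.05e-05, edgeR quasi-likelihood test). The neuron markers Chat and Slc5a7 had 0 counts in every library. Agrn RNA of whole muscle is therefore no direct measure of the agrin released by the nerve. Dok7 (ENSMUSG00000044716, chromosome 5, 35056766 to 35087839, plus strand) measured 28.0, 28.9, 27.6 and 31.5 CPM in controls and 20.42, 21.73, 19.27 and 21.97 CPM in mutants. It was 1.39-fold lower without overlap (log2 fold change -0.48, SE 0.07, adjusted p = 3.58e-04, same test). Rapsn (ENSMUSG00000002104, chromosome 2, 91035620 to 91045729, plus strand) was at 19.66, 22.33, 22.62 and 18.96 CPM in controls and at 15.8, 15.4, 15.5 and 17.8 CPM in mutants. Mutant 4 stood above the other mutants and close to control 4, the lowest control. Rapsn was 1.30-fold lower (log2 fold change -0.38, SE 0.09, adjusted p = 0.00478, same test). The 8 skeletal muscle fibre markers given below had a median log2 fold change of -0.45 (-1.02 to 0.72). Falls of this size were thus not particular to Agrn, Dok7 and Rapsn. The TMM factors were 0.915 to 0.959 in controls and 1.037 to 1.103 in mutants. When libraries were scaled by size only, the median gene moved to 0.22, and the log2 fold changes of Agrn, Dok7 and Rapsn were -0.34, -0.27 and -0.16, and the adjusted p of Rapsn was then 0.103 (edgeR quasi-likelihood test).

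**Figure D2:**
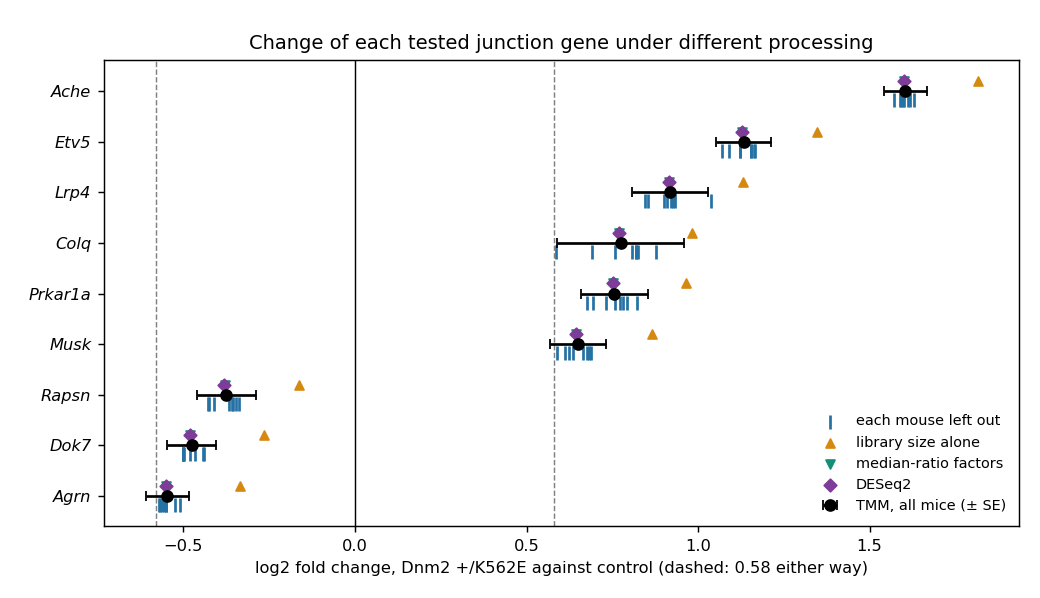
Log2 fold change of Dnm2 +/K562E against control soleus for each tested junction gene, as black points with SE for TMM scaling and all 8 mice, with blue ticks for fits that leave out 1 mouse each and coloured symbols for other scalings and DESeq2. Ache leads at 1.60 and Agrn ends the order at -0.55, and scaling by library size alone (orange) moves all 9 genes to the right without changing a sign.

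Among the regulators, Etv5 (ENSMUSG00000013089, chromosome 16, 22381309 to 22439719, minus strand) encodes an ETS transcription factor that subsynaptic nuclei use to express junction genes. It was at 16.7, 19.9, 20.2 and 18.8 CPM in controls and at 45.2, 38.8, 39.6 and 42.6 CPM in Dnm2 +/K562E mice. The mutant values lay well above all controls. Etv5 rose 2.19-fold (log2 fold change 1.13, SE 0.08, adjusted p = 2.50e-06, edgeR quasi-likelihood test). Of the 31-base stretches in its transcripts, 30.3% also occur in the gene model Gm4798, so some Etv5 reads may not have been counted. Prkar1a (ENSMUSG00000020612, chromosome 11, 109649405 to 109669656, plus strand) encodes a regulatory subunit of protein kinase A. Its values were 190.2, 223.9, 227.7 and 219.6 CPM in controls and 382.5, 313.4, 336.6 and 422.5 CPM in mutants. Mutants 1 and 4 were the highest, and the groups did not overlap. The log2 fold change was 0.76 (SE 0.10, adjusted p = 1.23e-04, same test), a 1.69-fold rise.

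Nrg1 (ENSMUSG00000062991, chromosome 8, 31814551 to 32884029, minus strand), the neuregulin that nerve and Schwann cells use to signal to muscle and to each other, was close to absent from these libraries. It had 0 counts in each control and 4, 1, 1 and 2 counts in mutants 1 to 4. A count of 0 allows up to 3 counts, or 0.0672 to 0.0894 CPM, in a control library. With so few reads no fold change was drawn, and these limits cover counting error only.

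The upstream sequence of the annotated start is shown for Musk, which rose, and for Agrn and Dok7, which were lower, since junction genes are known for E-boxes, the CANNTG sites of myogenic factors, and for the ETS site CCGGAA. RefSeq promoter sequences of GRCm38.p6 were at hand for 6 of the 10 members. The 250 bases before the start are printed 5′ to 3′ on the gene's strand, at chr4:58285712-58285961 (plus) for Musk, chr4:156197489-156197738 (minus) for Agrn and chr5:35056516-35056765 (plus) for Dok7. For Agrn and Dok7 the first of 2 listed starts was used. Capitals mark CANNTG, which reads alike on both strands.
Musk: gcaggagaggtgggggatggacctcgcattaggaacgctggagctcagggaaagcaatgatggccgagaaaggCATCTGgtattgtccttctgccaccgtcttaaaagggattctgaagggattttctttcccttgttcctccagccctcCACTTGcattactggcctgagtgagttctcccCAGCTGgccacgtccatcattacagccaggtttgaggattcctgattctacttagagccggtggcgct
Agrn: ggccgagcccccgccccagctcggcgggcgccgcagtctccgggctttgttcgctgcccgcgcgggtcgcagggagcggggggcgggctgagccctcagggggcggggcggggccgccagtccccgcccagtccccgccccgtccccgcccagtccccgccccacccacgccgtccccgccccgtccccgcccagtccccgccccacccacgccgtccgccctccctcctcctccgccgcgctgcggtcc
Dok7: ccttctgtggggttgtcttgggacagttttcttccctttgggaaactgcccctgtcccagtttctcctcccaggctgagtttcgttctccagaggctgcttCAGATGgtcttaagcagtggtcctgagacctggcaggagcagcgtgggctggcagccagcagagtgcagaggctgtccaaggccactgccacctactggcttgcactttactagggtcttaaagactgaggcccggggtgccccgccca
Musk held 3 E-boxes: CATCTG began 177 bases before its start, followed by CACTTG at 100 and by CAGCTG at 68 bases. Dok7 held 1 (CAGATG, 149 bases before), and the Agrn window held 0, although the window of its second start held CAACTG, 92 bases before. The window of the second Dok7 start held 0. Etv5 held 2 before its first start and 0 before its second, and the Prkar1a windows held 0 to 3. The Ache window held 1 (CACGTG, 199 bases before), but it is not printed, since it lies wholly inside the annotated gene and 54 of its 250 bases fall in exons of other Ache transcripts. Of all 32851 windows of this length, 66.2% held at least 1 E-box, with a mean of 1.16 per window, so a single match is common. Whether E-boxes go with the direction of change was not tested. The ETS site CCGGAA, searched on both strands, occurred in 12.03% of windows. Among the members it was found only upstream of 1 of the 6 Prkar1a starts, 7 bases before it. The matches describe letters and not sites in use.

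The order of the members' levels differed between the genotypes. Levels per length (normalized CPM per kb of annotated exon) ran in controls from Prkar1a (49.8 ± 3.96) through Rapsn (11.6 ± 1.03), Musk (8.47 ± 0.762), Dok7 (6.79 ± 0.403), Colq (5.61 ± 1.55), Agrn (4.99 ± 0.196), Etv5 (4.61 ± 0.388) and Ache (3.94 ± 0.0589) to Lrp4 (2.08 ± 0.381). The ranges of Dok7 and Colq, Colq and Agrn, and Agrn and Etv5 overlapped in controls, so these neighbours did not differ beyond their spread. In Dnm2 +/K562E mice the order was Prkar1a (84.2 ± 11.2), Musk (13.3 ± 1.00), Ache (11.98 ± 0.624), Etv5 (10.1 ± 0.711), Colq (9.60 ± 1.216), Rapsn (8.94 ± 0.613), Dok7 (4.88 ± 0.293), Lrp4 (3.92 ± 0.121) and Agrn (3.41 ± 0.181, all SD, n = 4). There the ranges overlapped for Musk and Ache, Etv5 and Colq, and Colq and Rapsn. Per length, Ache thus stood at rank 8 of the members in controls and at rank 3 in mutants, whereas Rapsn stood at rank 2 and rank 6. Agrn was above Lrp4 in every control and below it in every mutant. The exon length adds all annotated exons, including some that soleus may not use, which limits comparison between genes.

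**Figure D3:**
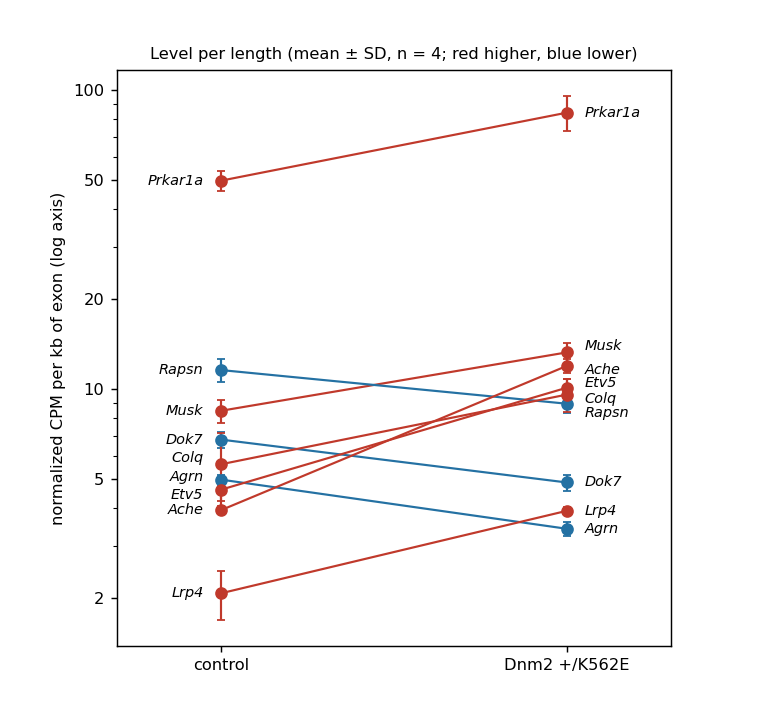
Mean normalized CPM per kb of exon (log axis, bars SD, n = 4) of the 9 tested junction genes in control and Dnm2 +/K562E soleus, joined by lines that are red for higher and blue for lower genes. Ache climbs from 3.94 to 11.98 while Rapsn goes from 11.6 to 8.94, and the lines of Lrp4 and Agrn cross.

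Ratios of genes within one library do not depend on how libraries are scaled, and 8 were compared. The log2 ratio of Rapsn to Chrna1 counts was -0.54 ± 0.11 in controls and -2.42 ± 0.19 in mutants (SD, n = 4 each). It differed by -1.88 without overlap, that is, rapsyn and the receptor subunit it clusters changed unequally (exact two-sided permutation test, p = 0.0286, adjusted over the ratios 0.0381). Rapsn was lower and Chrna1 higher without overlap in the same mice. The separation of this ratio and its p therefore follow from the single genes and add no further evidence. The Dok7 to Musk log2 ratio went from -0.14 ± 0.21 to -1.27 ± 0.12 (SD, n = 4 each), a difference of -1.13 with no overlap (exact permutation test, p = 0.0286). The same limit applies to it, since Dok7 was lower and Musk higher without overlap. The differences were 2.11 for Ache to Prima1, 1.21 for Etv5 to Gabpa and 0.51 for Prkar1a to Prkaca, each without overlap (exact permutation tests, p = 0.0286, adjusted 0.0381). This p is the smallest that 4 against 4 mice can give. Ache, Etv5 and Prkar1a each separated the genotypes alone, so these ratios add little to the single genes.

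The ratios of the closest partners did not pass. The Ache to Colq log2 ratio was 0.51, -0.51, -0.30 and -0.40 in controls and 0.68, 0.70, 0.47 and 0.57 in mutants. Control 1, with its low Colq, overlapped the mutants, and the difference of 0.78 had an exact permutation p of 0.0571. Without control 1 the difference was 1.01. Musk to Lrp4 differed by -0.28 with overlapping values (exact permutation test, p = 0.0571). The Nrg1 to Erbb3 ratio rested on 0 to 4 Nrg1 counts and was not read.

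**Figure D4:**
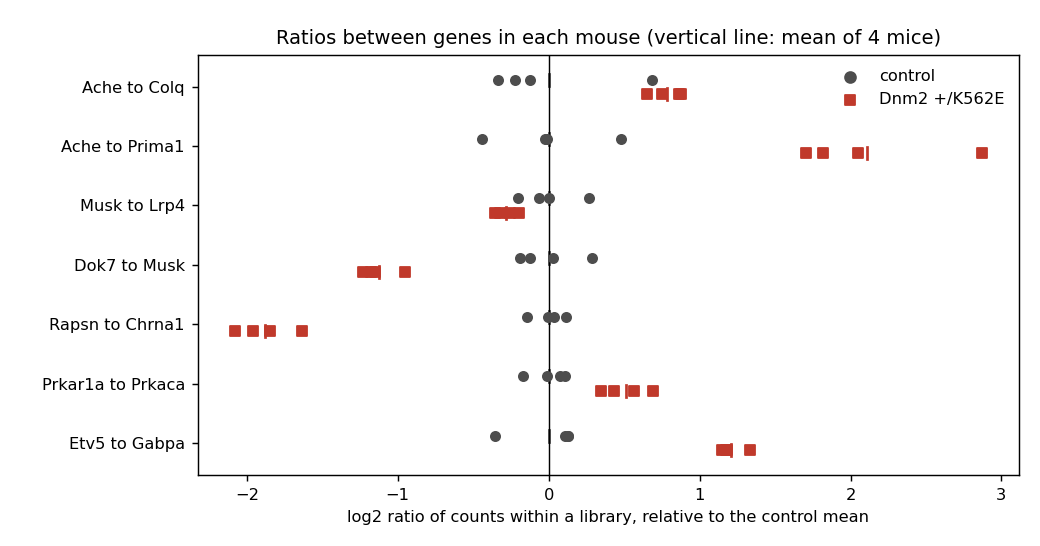
Log2 ratio of counts of a pair of genes in each library, relative to the mean of the controls, for 4 control mice (grey circles) and 4 Dnm2 +/K562E mice (red squares). Rapsn to Chrna1 and Dok7 to Musk lie to the left of all controls, with differences of -1.88 and -1.13, whereas control 1 sits among the mutants for Ache to Colq.

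The acetylcholine receptor, which these genes cluster, changed in all of its subunits. All 5 subunit genes were called higher, with a median log2 fold change of 1.51, beside 12.9% of all tested genes. Chrnd rose from 7.07 ± 0.459 to 44.4 ± 6.22 CPM and the fetal subunit Chrng from 0.438 ± 0.107 to 2.73 ± 0.741 CPM (SD, n = 4 each), with log2 fold changes of 2.65 and 2.64. Chrna1 (1.51) and Chrnb1 (1.36) followed. The adult subunit Chrne moved least (0.62, adjusted p = 0.0107, edgeR quasi-likelihood test), and it fell under the fold threshold without control 3 (0.54), without control 4 (0.52) and without mutant 3 (0.5786).

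Genes around the neuregulin and ETS branch were split. Of 8, 3 were called higher and none lower, beside 12.9% and 7.85% of all tested genes. Erbb2, a neuregulin co-receptor, rose from 7.24 ± 1.31 to 14.0 ± 1.49 CPM (SD, n = 4 each, log2 fold change 0.96, adjusted p = 2.72e-04, edgeR quasi-likelihood test). The ETS relatives of Etv5, Etv1 (0.78) and Etv4 (0.65), were also called higher, Etv4 not without control 2 (0.54). The ETS repressor Erf was higher at 0.52, under the fold threshold, and passed it without control 1 (0.61). The neuregulin receptors Erbb3 (log2 fold change -0.08, adjusted p = 0.723) and Erbb4 (0.27, adjusted p = 0.575, both edgeR quasi-likelihood test) did not pass. Nor did the subunits of the ETS factor GABP, Gabpa (-0.08) and Gabpb1 (-0.11), whose signs, like that of Erbb3, turned with library size alone.

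Of the protein kinase A subunit genes only Prkar1a was called. None of the other 5 was, beside 20.7% of all tested genes, apart from Prkar1b with library size alone (0.67). With only 5 genes this count is not far from that share. Their median log2 fold change was 0.07. The catalytic subunit Prkaca was higher by 0.24 (adjusted p = 0.00445, edgeR quasi-likelihood test). Prkacb (-0.09), Prkar2a (-0.09), Prkar2b (0.07) and Prkar1b (0.46) did not pass, and the signs of Prkacb and Prkar2a turned with library size alone and that of Prkar2b when single mice were left out.

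Downstream and beside the scaffold, most genes were not called, as was the case for most of all tested genes. Of 16 effectors of MuSK and rapsyn, 4 were called higher, beside 12.9% of all tested genes, with a median log2 fold change of 0.06. They were the kinases Src (0.99) and Pak1 (0.86), the actin regulator Cttn (0.79) and the cytoskeletal linker Macf1 (0.78). By adjusted p alone 7 of the 16 effectors were higher and 3 lower, beside 22.2% and 21.7% of all tested genes. In the synaptic basal lamina 2 of 10 were called higher, not far from the 12.9% of all genes. They were Col4a5 (0.99) and Col13a1 (0.85), the latter a membrane collagen of the junction. By adjusted p alone 5 of these 10 were higher and 1 lower.

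Of 10 genes known to respond to denervation, 5 were called higher and 2 lower, beside 12.9% and 7.85% of all tested genes. These counts do not take account of the direction in which each gene responds. Myog, a myogenic factor that acts through E-boxes, rose from 6.50 ± 1.46 to 55.8 ± 10.1 CPM (SD, n = 4 each, log2 fold change 3.10, adjusted p = 7.90e-07, edgeR quasi-likelihood test). Runx1 (2.04) and the adhesion molecule Ncam1 (1.74) rose too. The corepressor Dach2 was called lower (-1.30). Trim63, a muscle ubiquitin ligase known to rise on denervation, was called lower, against that direction (-0.86, adjusted p = 0.00873, edgeR quasi-likelihood test). Its values overlapped between the genotypes, at 137.4 to 309.4 CPM in controls and 107.5 to 169.5 CPM in mutants. The ligase Fbxo32 (-0.13) and the deacetylases Hdac4 (-0.06) and Hdac9 (-0.19) did not pass. Trim63, Fbxo32, Hdac4 and Hdac9 were named after their values were seen. At 2 months the study saw marginally fewer fully innervated soleus endplates but no significant rise of fully denervated ones. It also saw more fibres stained for embryonic or regenerating myosin, at low and variable levels. Whether denervation or regeneration moved the listed genes was not tested.

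**Figure D5:**
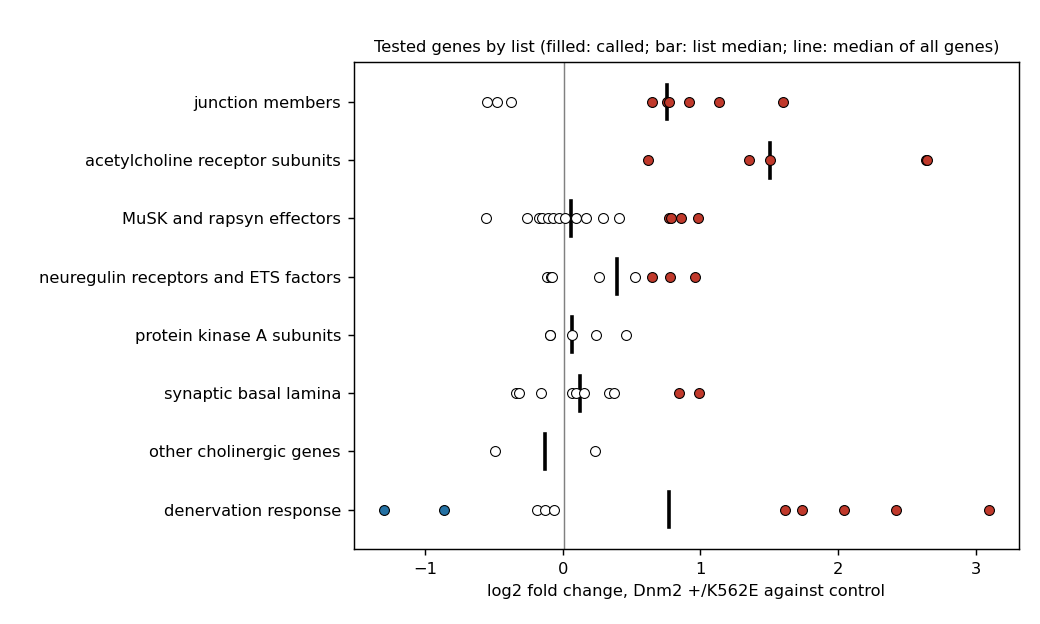
Log2 fold change of each tested gene, Dnm2 +/K562E against control, in the junction members and in 7 lists of related genes. Filled points were called (red higher, blue lower), black bars are list medians and the grey line is the median of all tested genes (0.01), and the 5 receptor subunits are all filled red whereas the protein kinase A subunits are all open.

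Genes of other cells moved in the same samples. The 8 fibre markers Acta1, Ckm, Myh7, Tnnt1, Tnni1, Mb, Des and Ttn were abundant in all mice and summed to 58902 to 66866 CPM in controls and 43636 to 49149 CPM in mutants, 5 of them lower and 1 (Des) higher at an adjusted p under 0.05. Of the markers of regenerating fibres, Myh3 and Myl4 were called higher and Myh8 was not, and the 3 summed to 49.7 to 56.4 against 488.0 to 732.7 CPM. All 5 macrophage markers were higher (summed 48.6 to 89.2 against 106.9 to 182.5 CPM), as were all 5 fibroblast markers (1810 to 2741 against 3886 to 5034 CPM). All 4 endothelial markers were lower at an adjusted p under 0.05 (810.4 to 849.9 against 576.3 to 661.6 CPM). 3 of 4 satellite cell markers were called lower, Pax7 (-2.03), Myf5 (-1.85) and the scarce Calcr (-3.47). Cdh15 (0.08) was not, and its 21.4 and 22.6 CPM made up most of the sum (29.4 to 37.1 against 23.7 to 26.7 CPM). Over all tested genes 12.9% were called higher and 7.85% lower. By adjusted p alone 22.2% were higher and 21.7% lower. Of 6 Schwann cell markers none was called and 1 (Mbp) was lower at an adjusted p under 0.05 (summed 184.0 to 204.2 against 156.9 to 192.5 CPM). No marker was at 0 in all mice, and the part of these cells in the junction genes' values was not tested.

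The genes most like Ache over the 8 mice, by Pearson correlation of log2 CPM, were Cep170b (0.9987), Guca2a (0.9977) and Mthfd2 (0.9977). Those most like Agrn, the lower member with the smallest p-value, were Mrps17 (0.9931), Guf1 (0.9920) and Slc47a1 (0.9919). Since both genotypes enter the correlation, 1334 genes reached 0.9 with Ache and 1371 with Agrn. Dnm2 itself was at 66.3 ± 4.74 CPM in controls and 73.4 ± 2.43 CPM in mutants (SD, n = 4 each, adjusted p = 0.0909, edgeR quasi-likelihood test), and a level summed over both alleles is no check of a point mutation.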

How the data were processed

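Per the labels and the study's methods, reads were trimmed with Trimmomatic 0.33, aligned with STAR 2.5.1b to GRCm38.p5 and counted with featureCounts. The authors deposited raw read counts per Ensembl gene for each mouse, without normalization. Reads that overlapped more than 1 gene were assigned to all of them, and whether strand was used is not given in the sources used here. No member's exons overlap another counted gene. The methods name poly A selection and the labels a total RNA kit.

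Symbols and exon lengths came from GENCODE M21 (GRCm38), which matched 22647 of 22880 IDs. Counts were filtered with filterByExpr (minimum count 10, minimum total 15), scaled by TMM and tested with the quasi-likelihood F-test of edgeR 4.0.16 in R 4.3.3, with Benjamini-Hochberg adjustment over 14001 genes. Standard errors were derived from the F statistic and the fitted change. Log2 CPM used a prior count of 2, and ratios added 0.5 to counts. Exact permutation tests used scipy 1.17.1. Mice are separate animals. The named genes were the members, Dnm2, whole lists on receptor subunits, neuregulin and ETS genes, protein kinase A and cholinergic genes, up to 4 called genes of each other list, ratio partners and the most correlated genes. Members and lists were chosen with earlier results of these data known. In simulated data, 98.5% of 200 genes changed by 1.5 (log2) were recovered among 13878 genes, and 12 of 209 calls were false. All members but Ache changed by less than 1.5, so this does not measure recovery of changes of their size. Far fewer genes were changed in the simulation than were called in the mice, and in random directions. Its share of false calls therefore need not hold for these data. The alternatives were the exact test, DESeq2 1.42.0, 2 other scalings, 2 other filters, no fold threshold, 2 replicate blocks and leaving out each mouse. 1 result is not reported here.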

Additional observations from a re-analysis of the deposited data

Results flagged for a closer look

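In 5 of 106 groups of 4 mice, 1 mouse lay apart from the other 3 by more than Dixon's 95% critical value for the gap over the range, and chance gives about 1 in 20. Rapsn was high in Dnm2 +/K562E mouse 4 (17.8 CPM). Control 1 was high in Bche (18.3 CPM) and low in the log2 ratio of Etv5 to Gabpa (-1.81). Control 3 was low in Dnm2 (59.2 CPM). Slc18a3 had its single count in Dnm2 +/K562E mouse 4 (0.0270 CPM).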

How the results depend on the processing

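The 9 tested members kept their direction under the exact test, DESeq2, other scalings, other filters, both replicate blocks and each left-out mouse. The 6 higher members were called in all of these and Agrn, Dok7 and Rapsn in none. Without the fold threshold 3 members counted as lower. Under the 2 other scalings 6 higher members but only 2 to 3 lower members separated the genotypes without overlap. The numbers of all genes called, 1806 higher and 1099 lower, became 2865 and 564 with library size alone and 3103 and 3036 without the fold threshold. With library size alone 1 protein kinase A subunit and 2 genes of the dystrophin complex were called, and the log2 fold changes turned to 0.13 for Erbb3, 0.13 for Gabpa, 0.10 for Gabpb1, 0.12 for Prkacb and 0.12 for Prkar2a. Leaving out single mice gave -0.18 to 0.11 for Erbb3 and -0.21 to 0.33 for Prkar2b. None of these had been called, and the cause was not tested. The replicate numbers are no pairing by animal: same-numbered mice correlated at a mean of -0.11 by title and -0.03 by description. A replicate block on the title number called 1637 genes higher and 1036 lower, a replicate block on the description number 1739 and 1083, and no member's call changed. The Rapsn log2 fold change was -0.37 with the title number as block (adjusted p = 0.0251, edgeR quasi-likelihood test). Leaving out 1 mouse leaves 4 against 3, where the permutation test used here cannot reach 0.05, so the ratios were compared by value. Counting depth limits Nrg1, Prima1 and Slc18a3.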
